A study of Mus musculus with 2 samples.

Results

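The genes described here are markers of T cells, natural killer (NK) cells, B cells and plasma cells, read in mouse dorsal root ganglion (DRG) samples. They are 32 of the 37074 gene names on the array, taken as a list by name, and every non-control probe that carries such a name was used, 53 probes in all. The list holds 20 genes of T cells and T helper cytokines, 4 of NK and cytotoxic cells and 8 of B and plasma cells. Each gene had 1 to 4 probes, each printed as 1 spot; 18 genes had 1 probe and 14 had more. RNA labelled as coming from DRG neurons was compared between a Dock8+/- sample and a Dock8-/- sample, both C57BL/6 and both carrying the AND T cell receptor transgene, written (tcr)AND in the labels. The submitters describe the Dock8+/- sample as having a low IL-31 level and the Dock8-/- sample as having a high one. Age, the number of mice and any pooling are not given in the sources used here, nor is the part of Dock8 that was deleted. There was 1 array per genotype, so no value below has a replicate or a p-value, and an animal, a dissection or a labelling reaction that differed cannot be told apart from the genotype.

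T cells recognise peptides through a T cell receptor that signals through the CD3 chains, the zeta chain and the kinases Lck and Zap70. The AND receptor is a rearranged receptor that sees a cytochrome c peptide on MHC class II and directs developing T cells towards the CD4 lineage, and both groups carry it. B cells signal through immunoglobulin paired with CD79A and CD79B. DOCK8 is a guanine nucleotide exchange factor for Cdc42 that lymphocytes need to move through dense tissue, and IL-31 is an itch cytokine made by helper T cells and sensed by DRG neurons. A healthy ganglion holds few lymphocytes, and in a bulk sample fewer cells of a type and less RNA per cell cannot be told apart.

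Several results turn on which stretch of a transcript a probe reads, so the probes that carry them are shown first. The probes are 60 bases long and their sequences and mm9 coordinates come from the array design. Printed here, 5′ to 3′ on the transcript's strand, are the last 30 bases of 5 probes, with each copy of the polyadenylation signal hexamer AATAAA in capitals. They are the probes that stood above background for Cd3e, Cd4 and Lck in both genotypes, and for Cd2 and Gzma in Dock8+/- alone.
Cd3e, chr9:44806828-44806887, minus strand: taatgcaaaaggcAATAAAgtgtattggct
Cd4, chr6:124814711-124814770, minus strand: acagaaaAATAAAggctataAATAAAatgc
Lck, chr4:129225614-129225673, minus strand: tgcctagcacacaccaggagctcAATAAAa
Cd2, chr3:101079831-101079890, minus strand: tccAATAAAaagctgtgtggatttatcttc
Gzma, chr13:113884035-113884094, minus strand: gtctgatcacaAATAAAatcaacttgaatg

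The hexamer was in 9 of the 53 member probes (17.0%) against 9.77% of all 56601 non-control probes. Its reverse complement, TTTATT, was in 5.66% of member probes and 3.85% of all probes. A match describes the letters of the probe and is not evidence that the site is used.

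The 2 probes of Ms4a1, which encodes the B cell surface protein CD20, gave opposite readings, so 30 bases of each are shown in lower case from the window of the probe that holds the most A and G letters.
Ms4a1, chr19:11324334-11324393, minus strand: ggagaggatggggaggtgggaggaggagtg
Ms4a1, chr19:11325409-11325468, minus strand: cagaaatgtaatgggttcccagatctcaaa
The former window holds 27 A or G letters and the latter 17. The highest such count among the other member probes was 25.

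The array measures fluorescence intensity, in arbitrary units, and the scanner software marks a probe as well above background or not; a probe so marked is called detected, and a gene with such a probe likewise. The software replaces very dim readings by a surrogate near the background, which it did for 13 member probes in Dock8+/- and 23 in Dock8-/-. In Dock8+/-, 19 of 32 members were detected, against 57.3% of all gene names, and in Dock8-/-, 9 of 32 were, against 51.8%. These 9 were among the 19; 10 members were detected in Dock8+/- alone, none in Dock8-/- alone and 13 in neither. Of all genes detected in Dock8+/-, 12.0% were detected there alone, and of all those detected in Dock8-/-, 2.68% were. By probe, 11 were detected in both genotypes, 15 in Dock8+/- alone, 0 in Dock8-/- alone and 27 in neither. The share of member probes detected was 49.1% in Dock8+/- and 20.8% in Dock8-/-, against 56.9% and 50.7% of all probes.

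**Figure D1:**
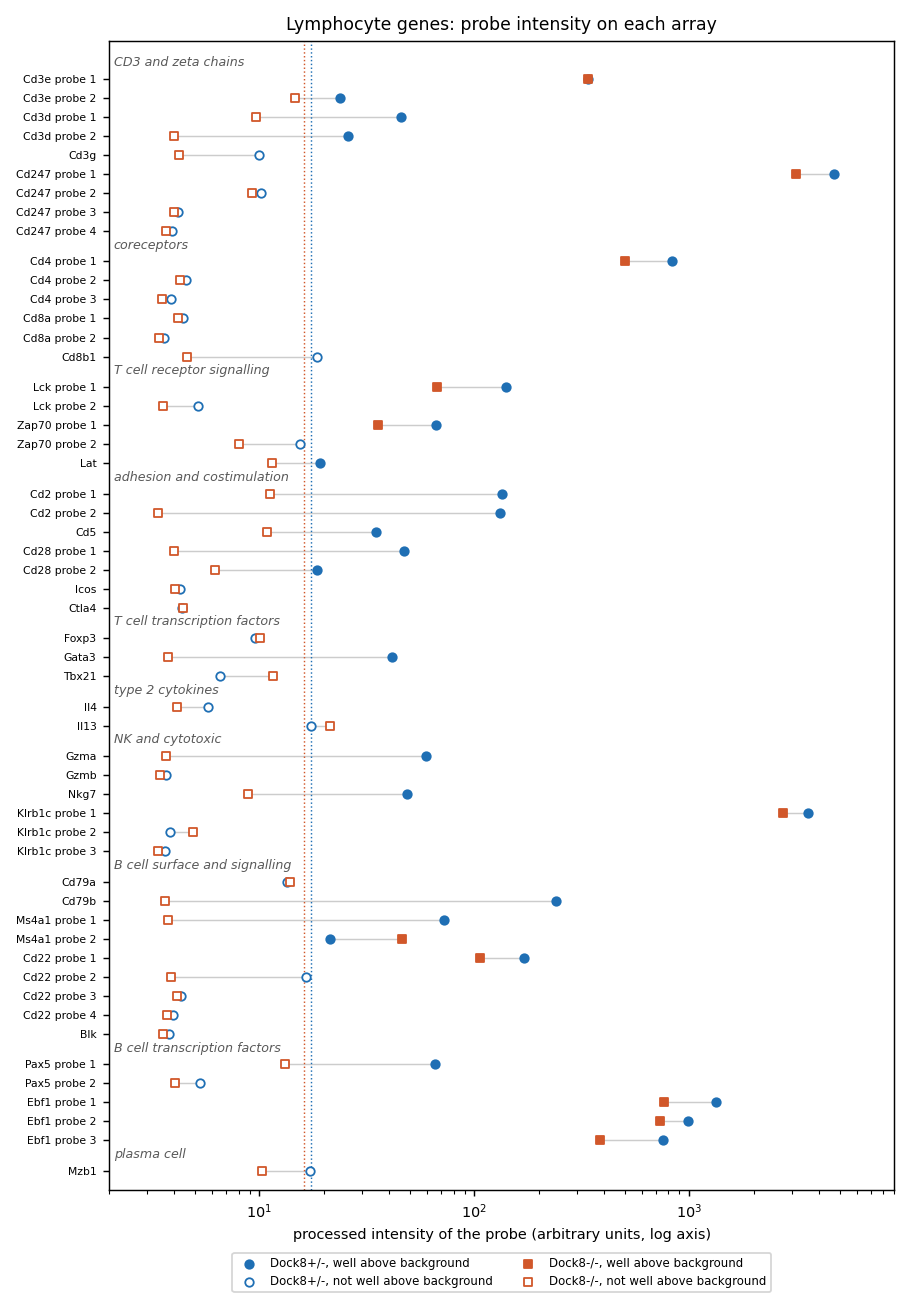
Processed intensity (arbitrary units, log axis) of all 53 probes of the 32 genes on the Dock8+/- array (blue circles) and the Dock8-/- array (orange squares), grouped by role; filled symbols are detected (well above background), open symbols are not, and dotted lines mark the lowest detected intensity on each array (17.4 and 16.1). No probe has a filled square and an open circle, and 15 have a filled circle and an open square.

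The arrays themselves were not equally bright. The 75th percentile of intensity was 303.8 in Dock8+/- and 145.6 in Dock8-/-, and 84.9% of all probes, like 46 of the 53 member probes, had the lower raw intensity on the Dock8-/- array. No probe was saturated, and 308 negative control spots had a median intensity of 4.04 and 3.80. Differences are therefore given after each array's log2 intensities were set relative to its 75th percentile, as Dock8-/- minus Dock8+/-, with an error from the scanner software that covers the spots and not the mice. Scaling on the arrays' spike-in probes lowers every difference by 1.84 and moves the median over all genes from 0.03 to -1.81, so directions below are relative to the other genes of the array. A gene takes, among its probes detected on both arrays, the one with the highest mean, so a probe lost on 1 array cannot set this value. For a gene detected on 1 array only, a lower bound of the difference is given: its intensity there against the higher of its own value and the lowest detected intensity of the other array, after scaling. Dock8 itself does not check the labels, since only 1 of 5 Dock8 probes was detected, at 20.5 ± 4.53 in Dock8+/-, and it gave 6.87 ± 3.84 in Dock8-/-.

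The 9 members detected on both arrays had differences from -0.00 (Lck) to 2.17 (Ms4a1), with a median of 0.38 against 0.03 over the 18680 gene names detected on both. Of these 9, 8 lay above 0, while 8 of 9 lay below 0 under spike-in scaling. A difference of 2-fold or more is used as a description of size. Cd3e and Ms4a1 were at least 2-fold higher in Dock8-/- (2 of 9, against 9.09% of all genes detected on both), and under spike-in scaling neither was. No member was at least 2-fold lower (0 of 9, against 7.01%). Under spike-in scaling 7 were, beside 16238 of the 18680 gene names detected on both. When detection on 1 array was enough, 8 of 19 members were. Over all genes that count was 2586, with 21256 detected in Dock8+/- and a further 516 in Dock8-/- alone. By the lower bound, 2 of the 10 members detected in Dock8+/- alone, Cd2 and Cd79b, were at least 2-fold lower in Dock8-/-, against 17.6% of all genes detected in Dock8+/- alone. Under spike-in scaling all 10 were, beside 2517 of the 2551 genes detected in Dock8+/- alone. With normexp background correction, Cd3d, Cd5, Cd28, Gata3, Gzma, Nkg7 and Pax5 had no bound.

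**Figure D2:**
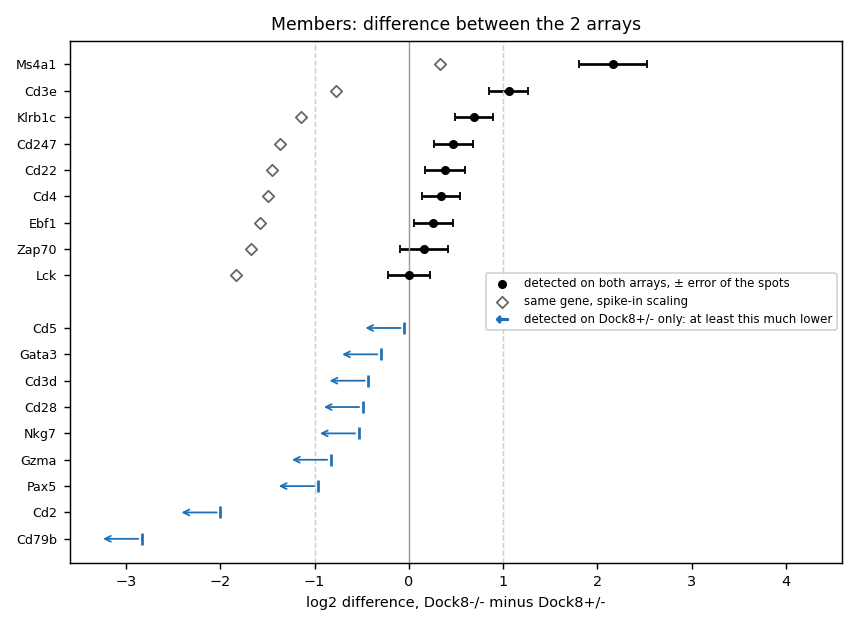
Log2 difference (Dock8-/- minus Dock8+/-) of the 9 members detected on both arrays, with the scanner software's error as bars, the same values under spike-in scaling as diamonds, and lower bounds (blue ticks with arrows) for 9 of the 10 genes detected in Dock8+/- alone; the tenth, Lat, has no bound. Dashed lines mark 2-fold: Cd3e (1.06) and Ms4a1 (2.17) lie past it on the higher side, and Cd2 and Cd79b on the lower side.

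**Figure D3:**
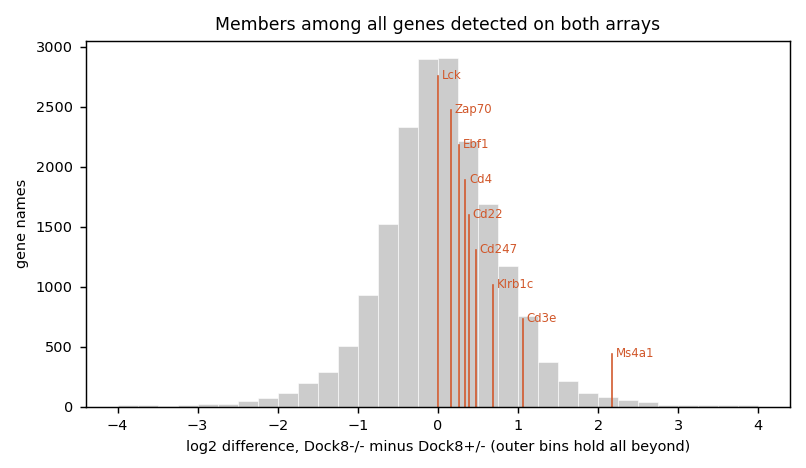
Number of gene names in each bin of log2 difference (Dock8-/- minus Dock8+/-, 75th percentile scaling) among the 18680 detected on both arrays, with the 9 members marked by orange lines whose heights only separate the names. The members lie from -0.00 (Lck) to 2.17 (Ms4a1), and under spike-in scaling all bars and lines would shift by -1.84.

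Of the chains that carry the T cell receptor signal, 3 of 4 were detected in Dock8+/- and 2 in Dock8-/-. The probe for Cd3e, the CD3 epsilon chain, shown above with its hexamer, read 339.3 ± 34.2 in Dock8+/- and 338.8 ± 34.1 in Dock8-/-. The raw intensities were thus equal within their error, and the scaled difference was 1.06 ± 0.21, or 2.08-fold higher in Dock8-/- (-0.78 under spike-in scaling, and 0.82, under 2-fold, with normexp background correction). A further Cd3e probe, at chr9:44807254-44807313, read 23.8 ± 4.38 and then 14.6 ± 3.73, which was not detected in Dock8-/-. The Cd3e probes thus differed in raw ratio and in detection.

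Cd3d, the CD3 delta chain, was detected in Dock8+/- alone. Its probes read 45.3 ± 6.29 and 25.7 ± 4.93 there, and 9.59 ± 4.24 and 3.99 ± 4.01 on the Dock8-/- array. The brighter probe bounds the gene at 1.35-fold lower or more in Dock8-/-. The dimmer one spans 232 bases of mm9, longer than the probe itself. Cd3g, the CD3 gamma chain, was detected in neither genotype (9.99 and 4.23). The 3 defining T cell markers, Cd3e, Cd3d and Cd3g, therefore gave 3 different patterns.

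Cd247, which encodes the zeta chain, was detected through 1 of its 4 probes. That probe, at chr1:167791567-167791626, read 4722 ± 472 in Dock8+/- and 3139 ± 314 in Dock8-/-, a scaled difference of 0.47 ± 0.20 (1.39-fold; -1.36 under spike-in scaling). The others read 10.2, 4.19 and 3.92 in Dock8+/- and 9.27, 4.01 and 3.68 in Dock8-/-, none of them detected. The 4 probes do not describe 1 level: the detected one lies between others that were not, and ends in the sequence tgactcgctccgctcctgctgtaaatttgg, with no hexamer.

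Among the coreceptors, Cd4 was detected on both arrays and Cd8a and Cd8b1 on neither. The Cd4 probe with the hexamer read 830.5 ± 83.1 and 503.1 ± 50.4, a difference of 0.34 ± 0.20 (1.26-fold; -1.50 under spike-in scaling). The other Cd4 probes, upstream at chr6:124815401-124815459 and chr6:124817706-124817765, read 4.56 and 3.86 in Dock8+/- and 4.29 and 3.54 in Dock8-/-, all near the negative control spots. The Cd8a probes read from 3.40 to 4.41 over both arrays. The Cd8b1 probe read 18.5 ± 4.62 in Dock8+/- and 4.63 ± 4.05 in Dock8-/-, without being detected in either.

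Of the receptor's signalling proteins, Lck and Zap70 were detected on both arrays. Lck, the kinase that starts the signal, read 140.6 ± 14.6 and 67.3 ± 7.63, which is a scaled difference of -0.00 ± 0.22. Zap70, the kinase recruited to the phosphorylated chains, read 66.3 ± 7.50 and 35.5 ± 4.82, a difference of 0.16 ± 0.26. For both genes the difference was smaller than its error under 75th percentile scaling, and a second probe was detected in neither genotype (Lck 5.20 and 3.56, Zap70 15.5 and 8.03). Lat, the adaptor that links the kinases to later steps, read 19.1 ± 4.24 in Dock8+/-, where it was detected, and 11.5 ± 3.75 in Dock8-/-, too close to the limit of detection for a bound.

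Among the adhesion and costimulatory receptors, 3 of 5 genes were detected in Dock8+/- and 0 of 5 in Dock8-/-. Of all gene names, 57.3% and 51.8% were detected. The 3 genes were Cd2, Cd28 and Cd5. Of all genes as bright as Cd28 and Cd5 in Dock8+/- (32 to 64), 38.6% were detected there alone. For genes as bright as Cd2 (128 to 256) that share was 3.78%. Cd2, an adhesion receptor of T and NK cells, read 134.8 ± 13.9 and 131.8 ± 13.7 through its probes in Dock8+/-, and 11.1 ± 3.54 and 3.39 ± 3.41 in Dock8-/-. The bound was 4.01-fold lower by the former probe and 3.92-fold by the latter; they overlap on chr3 and so are not independent readings. With normexp background correction the bound of Cd2 was -0.64 on the log2 scale, under 2-fold. Cd28, the main costimulatory receptor of naive T cells, read 47.3 ± 6.37 and 18.5 ± 4.08 in Dock8+/- and 4.01 and 6.21 in Dock8-/-, at least 1.41-fold lower by the brighter probe. Cd5, an inhibitory receptor of T cells and a subset of B cells, read 34.8 ± 5.51 and 10.8 ± 4.19, at least 1.04-fold lower. Icos and Ctla4, which appear on activated T cells, read 4.07 to 4.40 over both arrays, within the range of the negative control spots.

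Gata3, the transcription factor of the type 2 helper lineage, read 41.3 ± 5.77 in Dock8+/- and 3.77 ± 3.78 in Dock8-/-, at least 1.23-fold lower. Foxp3, the factor of regulatory T cells, read 9.51 and 10.1. Tbx21, the factor of type 1 helper cells, read 6.57 and 11.5. The type 2 cytokine Il4 read 5.76 and 4.15, and Il13 read 17.4 ± 4.85 and 21.3 ± 4.78. None of these last 4 was detected, so their readings have no order. Il31, which stands outside the 32 genes, was not detected on either array.

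Of the NK and cytotoxic genes, 3 of 4 were detected in Dock8+/- and 1 in Dock8-/-. Gzma, the granule protease granzyme A, read 59.8 ± 7.15 and 3.68 ± 3.70, at least 1.78-fold lower in Dock8-/-. Nkg7, a granule membrane protein, read 48.7 ± 6.68 and 8.81 ± 4.43, at least 1.45-fold lower. Gzmb, granzyme B, read 3.68 and 3.44 and was not detected. Klrb1c, which encodes NK1.1, was detected through 1 of its 3 probes, at chr6:128728603-128728662, with 3548 ± 355 and 2739 ± 274. Its difference was 0.69 ± 0.20 (1.61-fold; -1.15 under spike-in scaling). The other Klrb1c probes read 3.83 and 3.62 in Dock8+/- and 4.91 and 3.38 in Dock8-/-, so that 1 reading alone stands for the gene.

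The B cell receptor chains and surface proteins were detected in 3 of 5 cases in Dock8+/- and 2 of 5 in Dock8-/-. Cd79b, a signalling chain of the B cell receptor, had the largest bound of the members. It read 239.9 ± 24.3 in Dock8+/- and 3.65 ± 3.67 in Dock8-/-, where negative control spots had a median of 3.80, and was at least 7.13-fold lower. With normexp background correction its bound was -1.22 on the log2 scale, against -2.83. Its 1 probe lies at chr11:106172780-106172839 and ends in agaacacactggcttcaagaggagtctagg. Cd79a, its partner chain, was detected in neither genotype (13.4 ± 3.93 and 13.9 ± 3.73), and neither was Blk, a kinase of the same pathway (3.81 and 3.57).

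Ms4a1 was read in opposite directions by its probes. The purine-rich probe shown above read 21.4 ± 4.57 in Dock8+/- and 46.0 ± 5.97 in Dock8-/-, a difference of 2.17 ± 0.36, or 4.49-fold higher, and 0.33 under spike-in scaling. The other probe read 72.1 ± 8.26 in Dock8+/- and 3.76 ± 3.77 in Dock8-/-, at least 2.14-fold lower. The value of the gene is that of the former, since the other was not detected in Dock8-/-. Over all probes detected on both arrays, the share at least 2-fold higher in Dock8-/- was 10.5% among 19109 probes with up to 19 purines in their richest 30-base window, 12.9% among 7529 with 20 to 23, 23.5% among 972 with 24 to 26 and 58.9% among 124 with 27 or more. The median difference over those classes was 0.07, 0.09, 0.35 and 1.51. The part of the purine content in the Ms4a1 reading was not tested.

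**Figure D4:**
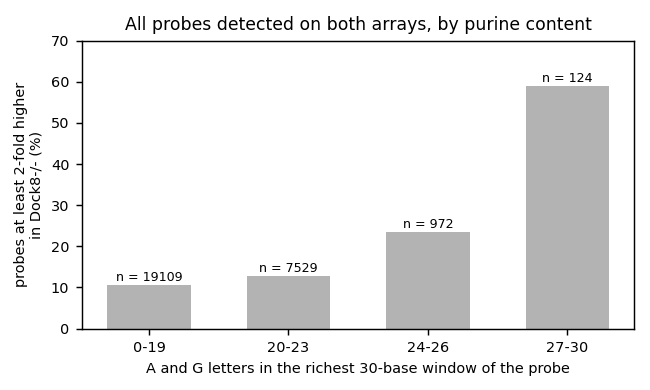
Share of probes at least 2-fold higher in Dock8-/- (percent, 75th percentile scaling) among all probes detected on both arrays, by the number of A and G letters in the probe's richest 30-base window. The share is 10.5% in the lowest class and 58.9% in the highest, which holds the Ms4a1 probe that read higher in Dock8-/-.

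Cd22, an inhibitory receptor of B cells, read 170.2 ± 17.6 and 106.5 ± 11.4 through 1 of 4 probes, a difference of 0.38 ± 0.22 (-1.45 under spike-in scaling). Its other probes read 16.5, 4.34 and 3.95 in Dock8+/- and 3.89, 4.13 and 3.73 in Dock8-/-, none detected. Pax5, the factor that fixes B cell identity, read 65.8 ± 7.56 in Dock8+/- and 13.2 ± 3.73 in Dock8-/-, at least 1.96-fold lower, while its second probe was not detected (5.31 and 4.06). Ebf1, an early B cell factor that stromal and perivascular cells also express, was the 1 member whose probes were all detected on both arrays. Its 3 probes read 1336 ± 134, 991.4 ± 99.2 and 754.7 ± 75.6 in Dock8+/-, and 766.2 ± 76.7, 727.9 ± 72.9 and 384.0 ± 38.5 in Dock8-/-. Their differences were 0.26, 0.62 and 0.09, all above 0, and the gene's value was -1.58 under spike-in scaling. The list of 5 adipocyte and perivascular genes had 4 detected on both arrays, with a median of -0.35 and a raw summed intensity of 2749 and 980.6, and its part in the Ebf1 reading was not tested. Mzb1, the plasma cell marker of the list, read 17.2 ± 4.78 and 10.3 ± 4.34, detected in neither genotype.

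The loss of readings on the Dock8-/- array went with how bright a gene was on the Dock8+/- array. Over all genes, 12.0% of those detected in Dock8+/- were detected there alone, and 2.68% of those detected in Dock8-/- were detected there alone. The share lost was 65.8% among genes whose brightest reading was 16 to 32, 38.6% from 32 to 64, 15.2% from 64 to 128 and 3.78% from 128 to 256. Of the members, Lat fell in the lowest class and was lost, and all 6 in the next were lost (Gzma, Nkg7, Cd28, Cd3d, Gata3 and Cd5). From 64 to 128, Pax5 was lost and Zap70 kept, while Ms4a1 counts as kept only through its purine-rich probe, since the probe at 72.1 that places it there was lost. From 128 to 256, Cd2 and Cd79b were lost while Lck and Cd22 were kept. These counts are a description.

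**Figure D5:**
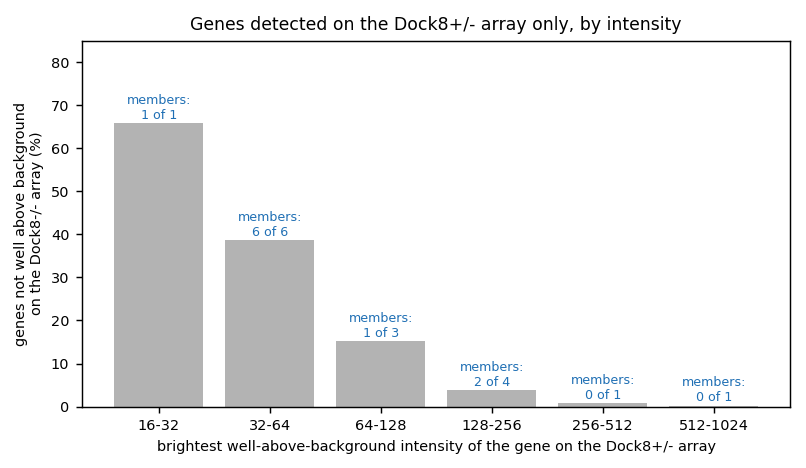
Percent of gene names detected in Dock8+/- that were not detected in Dock8-/-, by the gene's brightest intensity on the Dock8+/- array (arbitrary units, bars), with the number of members lost of those in the class above each bar. The share lost goes from 65.8% at 16 to 32 down to 0.187% at 512 to 1024; Cd2 and Cd79b are the 2 lost members at 128 to 256, where it is 3.78%.

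The presence of the polyadenylation hexamer went with detection of the member probes in Dock8+/-, and less clearly in Dock8-/-, where the comparison rests on few probes. All 9 member probes with AATAAA were detected in Dock8+/- and 3 of 9 in Dock8-/-, namely those of Cd3e, Cd4 and Lck. Of the 44 without it, 17 (38.6%) and 8 (18.2%) were. Over all probes, 65.7% of those with the hexamer and 55.9% of those without were detected in Dock8+/-, and 60.0% and 49.7% in Dock8-/-. The 9 probes include the overlapping pair of Cd2 and both probes of Cd28, so they stand for 7 genes.

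The antigen receptors themselves were sparsely represented by name, with 20 names of immunoglobulin or T cell receptor genes and 23 probes. Of these 23 probes, 4 were detected in Dock8+/- and 2 in both genotypes, with none in Dock8-/- alone. Of all probes, 56.9% were detected in Dock8+/- and 50.7% in Dock8-/-. Igkv4-72, an immunoglobulin kappa variable segment, read 172.9 ± 17.9 and 149.8 ± 15.6 (0.85 ± 0.21), and Ighg3, an immunoglobulin heavy chain constant region, read 22.3 ± 4.22 and 21.7 ± 3.99 (1.03 ± 0.38); both would lie below 0 with the spike-in shift of -1.84. Tcrg-V1, a gamma chain segment, read 25.1 ± 4.30 and 9.12 ± 3.38, and Trav6-3, an alpha chain segment, 25.9 ± 5.21 and 19.7 ± 4.69, both detected in Dock8+/- alone. The probes named Tcra (4.26 and 11.2) and Tcrb-J (4.30 and 4.10) were not detected. Variable segments share sequence, so these readings may mix several genes.

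A wider list of 85 lymphocyte genes outside the 32 had 48 detected in Dock8+/-, 29 in Dock8-/-, 26 in both, 22 in Dock8+/- alone and 3 in Dock8-/- alone, against 57.3% and 51.8% of all gene names detected in each genotype. Of all genes detected in Dock8+/-, 12.0% were detected there alone, and of all those detected in Dock8-/-, 2.68% were. The 26 had a median difference of -0.24, with 12 above 0, and their counts past 2-fold stand beside 9.09% higher and 7.01% lower over all genes. Those at least 2-fold higher in Dock8-/- were 2 of 26, with 0 under spike-in scaling and 1 with normexp background correction. The 2 include the T cell adaptor Skap1 (62.8 ± 7.40 and 74.6 ± 8.30, 2.48-fold), detected through 1 of its 5 probes. At least 2-fold lower were 3 of 26: the leukocyte GTPase Rac2 (202.0 ± 20.6 and 23.7 ± 4.26; -2.03), the leukocyte surface peptide Cd52 (1933 ± 193 and 244.1 ± 24.7; -1.92) and the B cell adaptor Blnk (454.2 ± 45.6 and 87.7 ± 9.43; -1.31). Ptprc, which encodes the pan-leukocyte protein CD45, read 1478 ± 148 and 836.5 ± 83.7 through its chosen probe (0.24), while its 3 probes detected in both differed from -1.85 to 0.24.

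Among the genes of that list detected in Dock8+/- alone, the largest bounds included those of the B cell genes Cd72 (170.1 ± 17.4 and 14.1 ± 3.85; at least 5.06-fold lower) and Vpreb3 (75.4 ± 8.70 and 5.70 ± 4.16; at least 2.24-fold). Il7r, the receptor for interleukin 7, and Bcl11b, a T cell lineage factor, had bounds of 1.93-fold and 1.87-fold lower. In Dock8-/- alone were detected Fcer2a, the low-affinity IgE receptor of B cells (14.8 ± 4.48 and 26.8 ± 4.82; at least 3.23-fold higher), the plasma cell factor Prdm1 (3.77 ± 3.78 and 22.1 ± 4.19; at least 2.66-fold) and the T cell chemokine receptor Ccr8 (9.78 ± 3.72 and 21.0 ± 3.95; at least 2.53-fold), and under spike-in scaling none of these 3 was at least 2-fold higher. Over all genes, 511 of the 516 detected in Dock8-/- alone were at least 2-fold higher by bound. After scaling, the lowest detected level was -4.13 in Dock8+/- and -3.18 in Dock8-/-, and the gap between these limits is part of such a bound. The plasma cell joining chain Jchain read 31.2 ± 4.88 and 10.6 ± 3.66, detected in Dock8+/- alone.

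Marker lists of other cells also differed between the arrays, with medians and 2-fold counts given under 75th percentile scaling and summed intensities raw, so that each pair of sums also holds the difference in brightness between the arrays. The 9 DRG neuron markers were all detected on both arrays, with a median of 0.12, so the labelled tissue carried its defining genes. Fibroblast markers were lower in Dock8-/- (5 of 6 at least 2-fold; median -2.28; summed intensity 253576 and 37148), as were macrophage markers (10 of 13; median -1.33; 57284 and 16869), skeletal muscle markers (3 of 3 detected on both; median -3.94; 6961 and 231.8) and haemoglobin and erythroid markers (2 of 2; median -1.47; 33850 and 7290). The macrophage marker Itgam went the other way, at least 2-fold higher in Dock8-/- (11048 and 10837; 1.03). Of 7 mast cell markers, 4 were detected in Dock8+/- alone, 3 of them at least 2-fold lower by bound, and Fcer1a was on neither. The remaining mast cell markers, Tpsb2 and Kit, were detected on both arrays, with differences of -0.35 and 0.03. Satellite glia, Schwann cell and endothelium markers detected on both arrays had medians of 0.43, -0.62 and -0.39. Neutrophil and bone marrow markers went the other way in 3 of 8 (median 0.25; summed intensity 10915 and 6654), a direction that the spike-in shift of -1.84 would turn for the median. The lymphocyte lists themselves summed to 6431 and 4163 in raw intensity (16 T cell genes), 3660 and 2755 (4 NK genes) and 1901 and 910.8 (7 B cell genes). Their scaled medians, over only the 5, 1 and 3 genes detected on both arrays, were 0.34, 0.69 and 0.38. These leave out the 5, 2 and 2 genes detected in Dock8+/- alone. The medians lie above 0 where the raw sums are lower in Dock8-/-, and would lie below 0 with the spike-in shift. Each sum rests mostly on 1 gene, namely Cd247, Klrb1c and Ebf1. The part of these other cells in the lymphocyte readings was not tested.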

How the data were processed

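Total RNA was amplified, labelled with Cy3 and hybridised to 1-colour Agilent mouse arrays, 1 per genotype and both on 1 slide. The deposited scanner files hold intensity per spot, background-subtracted but not normalised between arrays; the file headers name Agilent Feature Extraction 10.7.1.1 and the submitters' processing notes 9.5.1.1. A deposited table of intensity values, linear and by its values quantile normalised (98.9% of the sorted values of its columns equal, column medians 27.9 and 27.9; how it was made and centred is unknown), served as an alternative.

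Control spots and non-uniform spots (3 and 1) were left out. From the scanner intensities, log2 values minus the array's 75th percentile over 56601 probes were computed in Python 3.11.15 (pandas 2.3.3), and normexp and loess in R 4.3.3 (limma 3.58.1). Exon and UTR positions of the probes were not analysed here. In all, 45 member probes matched the accessions of the RefSeq table of GRCm38.p6, none under another symbol. With 1 array per group no test was made; the calculation was tested on simulated data. All 32 members are named, and of the other lymphocyte genes those at least 2-fold apart and the 5 largest bounds each way. Some genes that this rule names are not reported here. The members and lists were chosen with earlier results of these data known. For each result 14 alternatives were planned and 1, leaving out purine-rich probes, was added after seeing the data. No column of values was left unused.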

Additional observations from a re-analysis of the deposited data

How the results depend on the processing

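No paired analysis was possible because each genotype had 1 array, and for the same reason no replicate could be left out. Over 227 values of single members under the alternatives, 160 counted as unmoved, 65 as moved and 2 of at least 2-fold as reversed. A difference counted as unmoved when it moved by no more than its spot error. Bounds have no such error, so their labels do not measure one. Among the 65, 6 of under 2-fold (Cd247, Cd4, Zap70, Klrb1c, Cd22 and Ebf1) changed sign under spike-in scaling. The 2 reversed were Cd3e, to -0.78 under spike-in scaling, and Ms4a1, to -1.10 without purine-rich probes. The latter is a bound from its other probe. Cd3d, Cd5, Cd28, Gata3, Gzma, Nkg7 and Pax5 had no bound with normexp, so the 227 values hold none for them under that alternative. The causes of other changes were not tested. Spike-in scaling gave a member median of -1.45, 0 members higher, 7 lower and 10 lower by bound; of the further lymphocyte genes 0 higher, 0 higher by bound, 23 lower and 22 lower by bound; of all genes 59, 38, 16238 and 2517. Normexp gave 1 member higher and 1 lower by bound; further genes 1 higher, 0 higher by bound, 1 lower and 0 lower by bound; all genes 706, 206, 865 and 39. The less strict flag (positive and significant) left 24 members read in Dock8-/- and 23 on both, 6 higher, 1 higher by bound and 4 lower; further genes 7 higher and 16 lower; all genes 3435 higher, 2019 higher by bound and 2075 lower. Genes read on at least 1 array gave a member median of -0.0008 and 8 members lower, and 5 further genes higher and 18 lower. Of all genes, 2223 were then higher and 2586 lower. Loess gave 4 members lower by bound, and of the further genes 1 higher by bound, 6 lower and 5 lower by bound. Of all genes it gave 337 higher by bound, 1531 lower and 696 lower by bound. Quantile normalisation and the deposited table each gave 4 members and 5 further genes lower by bound, beside 577 and 585 of all genes. At 1.5-fold, 4 members were lower by bound, 6 further genes higher, 7 lower and 5 lower by bound, and of all genes 3908 higher, 3148 lower and 717 lower by bound. At 3-fold, 1 member was higher, 0 further genes higher, 1 higher by bound and 1 lower by bound, and of all genes 489, 244, 424 and 222 were higher, higher by bound, lower and lower by bound. Without purine-rich probes 1 member was higher, beside 1644 of all genes. The main counts are 2 members higher and 2 lower by bound; 2 further genes higher, 3 higher by bound, 3 lower and 3 lower by bound; and 1698, 511, 1310 and 450 of all genes. Readings near the background limit depth: the median error of a difference was 0.21, and no bound falls below the lowest intensity called well above background (17.4 and 16.1).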
